A study of Mus musculus with 4 samples.

Results

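The genes of the DNA replication machinery were followed across 4 mouse blood cell populations, each measured on 1 single-colour Affymetrix array. The set comprised 39 genes chosen by name and function, with every probe set annotated to 1 of these symbols and no other. It held 84 of the 45101 probe sets on the array and 39 of the 18193 genes that could be named. The series compared kinds of cells used as nuclear donors for cloning, differentiated cells and adult stem cells, and the arrays served to check the profile of each kind. Granulocytes were bone marrow cells sorted for high granularity and strong Gr-1 staining, with a purity of 99.4% by morphology, per the labels' protocols. Haematopoietic progenitor cells (HPC) were c-Kit enriched, lineage-negative cells outside the Sca-1 positive gate. Haematopoietic stem cells of the long-term repopulating kind (LT-HSC) were c-Kit and Sca-1 positive, lineage-negative and CD34 negative, and those of the short-term kind (ST-HSC) were the same but CD34 positive. The strain, sex, age and number of the mice are not known here, and no treatment is named for any population.

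A cell copies its DNA in fixed steps. In G1 phase the origin recognition complex marks start sites, and CDC6 and CDT1 use it to load the ring-shaped MCM helicase, a step called licensing that geminin blocks once S phase has begun. CDC45, the GINS complex and MCM10 then switch the helicase on. Polymerase alpha with its primase lays down primers, polymerases epsilon and delta extend them along the PCNA clamp loaded by replication factor C, and RPA shields the single strands. FEN1 and ligase I join the lagging strand, and ribonucleotide reductase makes the deoxynucleotides. Many of these genes are switched on by E2F transcription factors as cells enter the cycle. Mature granulocytes have left the cell cycle, long-term stem cells of adult marrow are known for being mostly at rest, and short-term stem cells and progenitors divide more often.

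A value is the deposited probe set signal, on a linear scale on which the trimmed mean was 500.00 on each array. Signals under 120.1, the median of all values pooled, were set to that floor before any log2 difference. A gene stands by its brightest probe set, and signals of different probe sets are not compared with each other. A gene counted as lower or higher on an array only where it passed 2-fold in that direction against every array it was set against. There is 1 array per population, so no difference has a replicate check and no test was possible. As a measure of error, probe sets of the same gene were compared, and their SD over all genes was 0.85 log2 units in the granulocyte comparison, 0.57 in that of HPC and 0.64 between LT-HSC and ST-HSC. That SD leaves out variation among sorts and among amplifications of RNA from 50 to 200 cells. In such bulk samples, fewer cycling cells and less RNA per cycling cell cannot be told apart.

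The labels were checked against markers of each cell type. All 10 granulocyte markers lay above the floor in granulocytes, with a summed signal of 390493, against 1458 for HPC, 18007 for LT-HSC and 2951 for ST-HSC. All 6 progenitor markers lay above the floor in HPC, but so did 5 in LT-HSC and 6 in ST-HSC, with sums of 69015 for HPC, 9436 for LT-HSC and 33009 for ST-HSC. Granulocytes had 3 of 6 above the floor and a sum of 14014, above that of LT-HSC. It came mostly from Csf1r, at 13089 in granulocytes against 11928 for HPC. All 8 stem cell markers lay above it in LT-HSC and in ST-HSC, and 7 did in HPC. The stem cell markers summed to 39209 in LT-HSC and 22119 in ST-HSC, against 811 in granulocytes and 11245 in HPC. Of the 6 progenitor markers, 4 were 2-fold lower in LT-HSC than in ST-HSC and none higher, with Mpo at 1149 against 18718. Of all genes, 5.33% were lower and 7.05% higher. Among other differences, 3 further ones of the LT-HSC array from the ST-HSC array are given here. The first was the LT-HSC granulocyte marker sum, 4.61% of that in granulocytes with 6 of 10 markers above the floor. It was carried by S100a8 (6783), Lcn2 (3332), Ltf (2502), Camp (2451) and S100a9 (2203). Mmp8, Mmp9, Itgam and Cxcr2, also granulocyte markers, stayed under the floor there at 7.9 to 77.4. Csf3r, the remaining marker, went the other way, with 551 in LT-HSC against 2404 in ST-HSC. The second was a B-lineage marker sum of 9508 with 5 of 5 above the floor, against 538 in ST-HSC with 1 of 5. HPC also held B-lineage markers, with a sum of 5039 and 4 of 5 above the floor, and granulocytes had 1194 with 2 of 5. The third was a signal of 16644 for the 5′ probe set of 18S ribosomal RNA, against 508 to 4677 elsewhere. Their part in the results for LT-HSC and HPC was not tested.

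Replication genes were low in granulocytes. Of the 39 genes, 31 (79.5%) had at least 2-fold less signal in granulocytes than on each of the other 3 arrays, where 12.6% of all genes did. Among these, 20 genes were 4-fold or more below each other array, against 5.22% of all genes. No member was 2-fold higher in granulocytes than on each of the others, against 8.72% of all genes. The median log2 difference from the mean of the other arrays was -2.62 for the members and 0 for all genes. Many of all genes were at the floor and could not be called. With dim genes left out, which removed no member, 25.2% of the remaining 8844 genes were 2-fold lower and 14.8% higher in granulocytes, with a median of -0.35. Taken against single arrays, 35 members were 2-fold lower in granulocytes than in HPC (18.9% of all genes were), 31 lower than in LT-HSC (19.5%) and 35 lower than in ST-HSC (19%). Granulocytes had the lowest of the 4 signals for 36 of 39 members, and for 25.4% of all genes. The plot of the signals shows this as a column of granulocyte points to the left of the others in nearly every row. The 8 members that did not pass 2-fold against every array were Gmnn, Cdc45, Gins3, Pold1, Pcna, Rfc2, Rpa3 and Fen1.

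**Figure D1:**
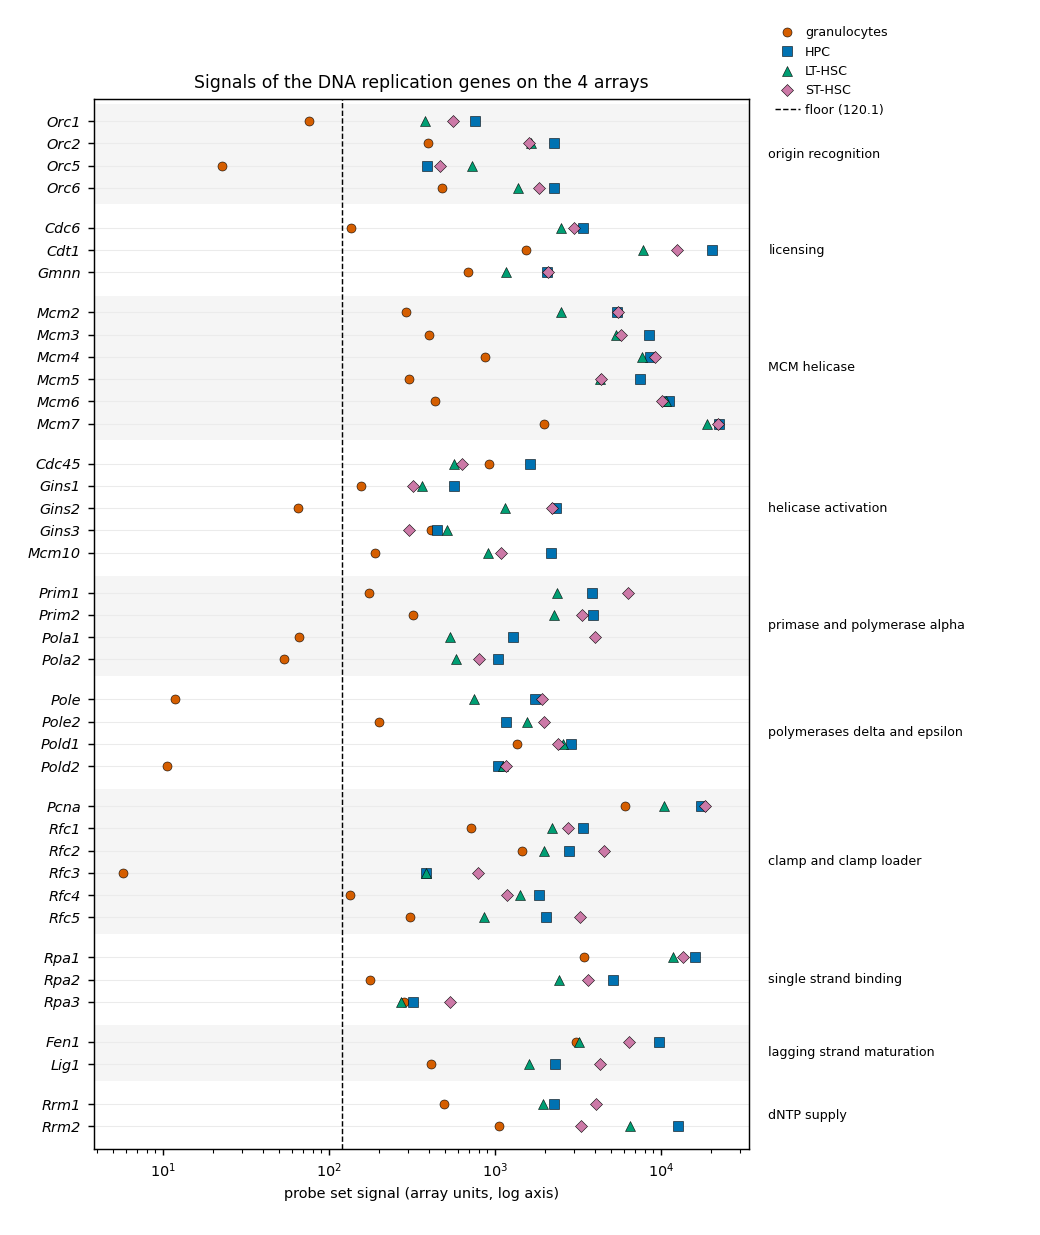
Signal of each of the 39 replication genes (rows, grouped by role) on the granulocyte, HPC, LT-HSC and ST-HSC arrays, on a log axis in array units, 1 array per population, with the floor of 120.1 as a dashed line. Granulocytes have the lowest signal for 36 of 39 genes, and 8 of the granulocyte signals lie under the floor.

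Promoters of the members were searched because most members had a low signal on the same array. RefSeq promoter windows of the mouse assembly GRCm38.p6, from 250 bases before to 50 after the start of a gene, were at hand for 32 of the 39 members (38 windows). The letters TTTCCCGC, TTTCGCGC, TTTGCCGC and TTTGGCGC, forms of the site that E2F factors bind, were looked for on both strands. At least 1 match stood in 13 of the 38 windows (34.2%), against 744 of all 32851 windows (2.26%). The 13 genes were Orc1, Cdc6, Cdt1, Mcm3, Mcm5, Mcm6, Mcm7, Gins3, Pola1, Pole2, Pold1, Rfc3 and Lig1. Of the 26 members lower in granulocytes that had a window, 11 held a match, and so did 2 of the other 6 (Gins3 and Pold1). CCAAT, in either orientation, stood in 63.2% of member windows and 37.4% of all. The letters TTTGAA, the core of the element through which genes of later cycle phases are repressed, stood in 13.2% and 17.9%. A match is a run of letters and not a site shown to be bound, and base composition was not matched between the groups of windows.

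The 160 bases before the start are given for the 7 genes whose matches lie there, 6 of them lower in granulocytes and 1, Gins3, not. Capitals mark the E2F letters, in either orientation and merged where matches overlap, and the last base printed is the one before the start.
Orc1, chr4:108579294-108579453 on the plus strand: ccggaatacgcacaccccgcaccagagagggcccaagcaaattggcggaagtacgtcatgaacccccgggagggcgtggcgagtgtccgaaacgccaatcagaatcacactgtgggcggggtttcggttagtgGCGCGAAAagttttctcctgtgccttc
Cdc6, chr11:98907991-98908150 on the plus strand: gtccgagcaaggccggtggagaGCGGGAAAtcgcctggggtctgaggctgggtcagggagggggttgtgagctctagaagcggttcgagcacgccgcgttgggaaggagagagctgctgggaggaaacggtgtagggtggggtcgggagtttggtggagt
Mcm5, chr8:75109349-75109508 on the plus strand: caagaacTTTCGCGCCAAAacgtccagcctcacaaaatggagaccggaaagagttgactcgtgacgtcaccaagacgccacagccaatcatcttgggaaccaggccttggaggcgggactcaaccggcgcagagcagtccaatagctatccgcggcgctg
Mcm6, chr1:128359706-128359865 on the minus strand: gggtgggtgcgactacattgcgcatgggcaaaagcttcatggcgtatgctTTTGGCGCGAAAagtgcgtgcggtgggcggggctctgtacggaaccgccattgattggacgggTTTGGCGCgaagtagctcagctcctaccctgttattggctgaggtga
Pola1, chrX:93632156-93632315 on the minus strand: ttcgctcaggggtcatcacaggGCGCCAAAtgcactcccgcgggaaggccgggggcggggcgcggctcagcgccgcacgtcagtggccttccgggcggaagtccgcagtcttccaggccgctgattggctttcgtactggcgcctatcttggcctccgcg
Rfc3, chr5:151651209-151651368 on the minus strand: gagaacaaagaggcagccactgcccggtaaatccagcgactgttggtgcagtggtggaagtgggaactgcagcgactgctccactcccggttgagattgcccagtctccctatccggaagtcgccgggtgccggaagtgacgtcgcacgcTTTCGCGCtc
Gins3, chr8:95633399-95633558 on the plus strand: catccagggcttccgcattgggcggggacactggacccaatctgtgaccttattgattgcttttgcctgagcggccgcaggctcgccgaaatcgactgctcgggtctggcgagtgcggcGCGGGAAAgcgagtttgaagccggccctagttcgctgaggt
In Mcm6, 2 such runs stand in the window, while the other 6 genes have 1 run each. The Gins3 window holds a run of the same letters as that of Cdc6, GCGGGAAA, nearer to its start.

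Of the origin recognition complex, the 4 subunits among the members were all 2-fold lower in granulocytes, with a median log2 difference of -2.14. Orc1, the largest subunit of the complex, had a signal of 76.3 in granulocytes, under the floor, against 759 for HPC, 382 for LT-HSC and 561 for ST-HSC, which is at least 3.18-fold lower. Orc2 had 398 in granulocytes, against 2286 for HPC, 1659 for LT-HSC and 1613 for ST-HSC. Orc5, an ATP-binding subunit, lay at 22.7 in granulocytes, against 392 for HPC, 727 for LT-HSC and 470 for ST-HSC. Among HPC, LT-HSC and ST-HSC, Orc5 and Gins3 were the 2 members with their highest signal in LT-HSC, where 21.9% of all genes had it. For Gins3 this depended on the probe set, as its other one was dimmest in LT-HSC (138, against 276 in HPC and 163 in ST-HSC). Orc6 had 481 in granulocytes, against 2279 for HPC, 1372 for LT-HSC and 1853 for ST-HSC, and its 2.85-fold difference from the nearest array was the smallest of the 4 subunits. The complex has 2 more subunits, counted with the further replication proteins, and neither was 2-fold lower. Orc3 had 1104 in granulocytes, against 922 for HPC, 890 for LT-HSC and 490 for ST-HSC, a mean difference of 0.58, or 0.047 with arrays scaled to the hybridization controls. Orc4 had 474 in granulocytes, against 760 for HPC, 598 for LT-HSC and 1141 for ST-HSC, a mean difference of -0.76.

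Of the 3 licensing factors, 2 were 2-fold lower in granulocytes, with a median of -3.03. Cdc6, the loader that is made anew in each cycle, had a signal of 135.8 in granulocytes, against 3404 for HPC, 2503 for LT-HSC and 3012 for ST-HSC. Its granulocyte value lay just under 138, the highest signal on that array among the control probe sets for bacterial transcripts that the labels do not name as added. Cdt1, which brings the helicase to the origin, had 1541 in granulocytes, against 20274 for HPC, 7818 for LT-HSC and 12535 for ST-HSC. Both genes passed 4-fold against every array. Against the nearest, Cdt1 was 5.07-fold lower, and the 18.4-fold of Cdc6 is a bound because its granulocyte signal was not above the controls. Gmnn, the inhibitor of CDT1, had 688 in granulocytes, against 2054 for HPC, 1162 for LT-HSC and 2084 for ST-HSC. It differed by 1.69-fold from LT-HSC and did not pass 2-fold.

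By their brightest probe sets, all 6 subunits of the MCM helicase were past 4-fold, with a median of -3.93 and no granulocyte signal under the floor. Those of Mcm4, Mcm5 and Mcm6 have names ending in _x_at, a type that may also bind related transcripts. Dimmer probe sets of Mcm2 (11.1), Mcm3 (46.3), Mcm5 (88.3) and Mcm6 (33.4) lay under the floor in granulocytes, so their differences are bounds. The medians of origin recognition, of both polymerase groups and of the clamp and its loader rest on members under the floor in granulocytes and are bounds, so role groups are not ranked. Mcm6 had a signal of 434 in granulocytes, against 11163 for HPC, 10689 for LT-HSC and 10124 for ST-HSC, a difference of 23.3-fold from the nearest array. Mcm5 had 307 in granulocytes, against 7512 for HPC, 4304 for LT-HSC and 4368 for ST-HSC, and Mcm3 had 400 in granulocytes, against 8463 for HPC, 5392 for LT-HSC and 5798 for ST-HSC. Mcm2 had 291 in granulocytes, against 5458 for HPC, 2500 for LT-HSC and 5547 for ST-HSC. In these 4 subunits the granulocyte signal of the brightest probe set was clear of the floor and still far from every other array. Mcm7 kept a signal of 1980 in granulocytes, against 22439 for HPC, 19108 for LT-HSC and 22083 for ST-HSC. Mcm4 had 871 in granulocytes, against 8617 for HPC, 7699 for LT-HSC and 9260 for ST-HSC, and with a mean difference of -3.29 it had the smallest of the group. By the brightest probe sets, every subunit stayed within 2-fold among the other 3 arrays, apart from Mcm2, which was lower in LT-HSC.

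The genes that switch the helicase on did not move as 1 group: 3 of 5 passed 2-fold and the median was -1.37. Gins2 had a signal of 65.0 in granulocytes, under the floor, against 2331 for HPC, 1146 for LT-HSC and 2206 for ST-HSC, at least 9.54-fold lower. Mcm10, a factor that stimulates the loaded helicase, had 190 in granulocytes, against 2170 for HPC, 916 for LT-HSC and 1085 for ST-HSC. Gins1 had 157.0 in granulocytes, against 566 for HPC, 365 for LT-HSC and 322 for ST-HSC, and passed 2-fold by a narrow margin (2.05-fold from ST-HSC). Gins3 and Cdc45 went a different way. Gins3 had 414 in granulocytes, against 448 for HPC, 516 for LT-HSC and 304 for ST-HSC, with no difference from the mean of the others (0.00). Cdc45, which joins MCM and GINS in the active helicase, had 919 in granulocytes, against 1636 for HPC, 568 for LT-HSC and 639 for ST-HSC, so granulocytes stood above both stem cell arrays and below HPC. Its mean difference of 0.13 turned to -0.41 when arrays were scaled to the hybridization controls, and that of Gins3 to -0.53.

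A second Cdc45 probe set had 556 in granulocytes, against 185 for HPC, 269 for LT-HSC and 423 for ST-HSC, 1.01 log2 units above the mean of the others. A second Gins3 probe set had 209 in granulocytes, against 276 for HPC, 138 for LT-HSC and 163 for ST-HSC. Neither probe set of either gene was 2-fold below the mean of the other arrays in granulocytes. The 2 further Mcm10 probe sets cleared the floor in HPC only, so their differences (-0.36 and -0.05) are limited by the floor and cannot be set against the -2.77 of the brightest.

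Primase and polymerase alpha were lower in granulocytes in 4 of 4 genes, all past 4-fold, with a median of -3.41. Prim1, the catalytic subunit of primase, had a signal of 175.0 in granulocytes, against 3831 for HPC, 2366 for LT-HSC and 6383 for ST-HSC. Prim2, its regulatory subunit, had 323 in granulocytes, against 3911 for HPC, 2276 for LT-HSC and 3379 for ST-HSC. The nearest array was LT-HSC for both, at 13.5-fold for Prim1 and 7.04-fold for Prim2. Pola1, the catalytic subunit of the polymerase, lay at 66.4 in granulocytes, against 1295 for HPC, 534 for LT-HSC and 4025 for ST-HSC. Pola2, its partner subunit, lay at 53.9 in granulocytes, against 1050 for HPC, 587 for LT-HSC and 801 for ST-HSC, at least 4.89-fold lower. Prim2, Pola1 and Pola2 were also the members with probe sets of opposite sign. Another Prim2 probe set had 271 in granulocytes, against 16.8 for HPC, 46.9 for LT-HSC and 111 for ST-HSC, all 3 under the floor. The second of Pola1 had 129.9 in granulocytes, against 25.2 for HPC, 112 for LT-HSC and 37.0 for ST-HSC, and another of Pola2 had 123.6 in granulocytes, against 74.8 for HPC, 66.0 for LT-HSC and 13.1 for ST-HSC. These dim probe sets cleared the floor on the granulocyte array only.

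**Figure D2:**
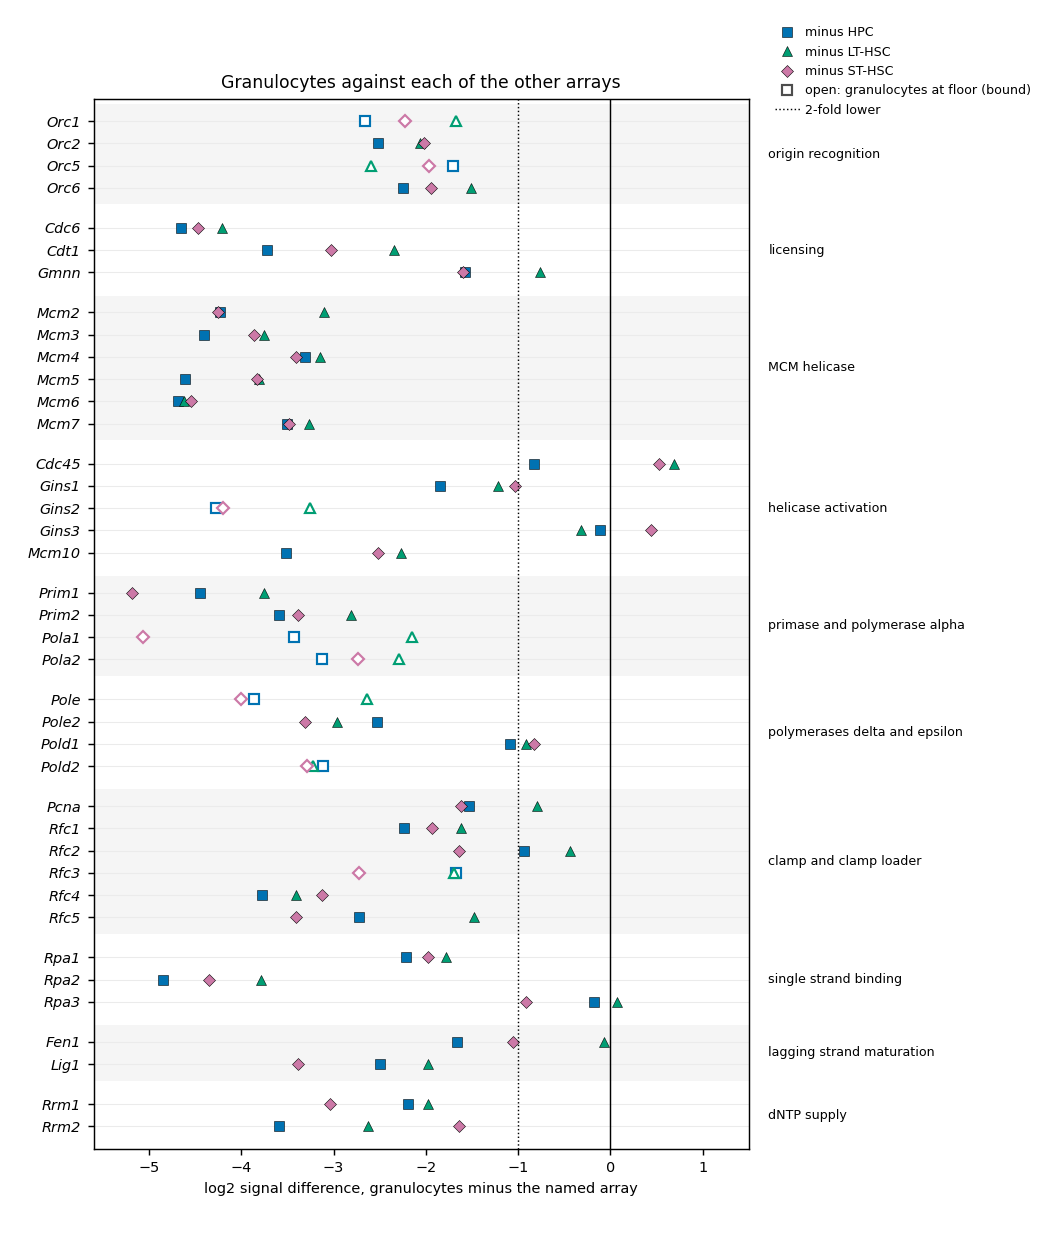
Log2 difference of the granulocyte signal from the HPC, LT-HSC and ST-HSC signal for each of the 39 genes (rows, by role), with open symbols where granulocytes lie at the floor and the difference is a bound. The 6 MCM genes all lie beyond -3, while Cdc45, Gins3 and Rpa3 straddle 0.

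Of the polymerases that copy the strands, 3 of 4 genes passed 2-fold, with a median of -3.07. Pole, the catalytic subunit of the leading strand polymerase, lay at 11.9 in granulocytes, against 1751 for HPC, 749 for LT-HSC and 1926 for ST-HSC. Pole2 had 202 in granulocytes, against 1162 for HPC, 1572 for LT-HSC and 1994 for ST-HSC. Pold2, an accessory subunit of the lagging strand polymerase, lay at 10.6 in granulocytes, against 1039 for HPC, 1117 for LT-HSC and 1172 for ST-HSC, at least 8.65-fold lower. The catalytic subunit behaved differently. Pold1 had 1363 in granulocytes, against 2892 for HPC, 2572 for LT-HSC and 2417 for ST-HSC, and was 1.77-fold below the nearest array, so it passed 2-fold only against HPC. Its other probe set gave a mean difference of -0.69.

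The clamp and its loader were mixed, with 4 of 6 genes past 2-fold and a median of -1.98. Pcna, the sliding clamp, which also serves DNA repair, kept a signal of 6065 in granulocytes, against 17486 for HPC, 10500 for LT-HSC and 18590 for ST-HSC. It was 1.73-fold below LT-HSC and missed 2-fold there. Rfc4 had 135.1 in granulocytes, against 1845 for HPC, 1429 for LT-HSC and 1179 for ST-HSC, and Rfc3 lay at 5.8 in granulocytes, against 384 for HPC, 388 for LT-HSC and 793 for ST-HSC. The granulocyte values of both lay under the 138 of the controls, so their differences are bounds and have no order. Rfc5 had 307 in granulocytes, against 2027 for HPC, 857 for LT-HSC and 3248 for ST-HSC. Rfc1, the large subunit that opens the clamp, had 721 in granulocytes, against 3399 for HPC, 2220 for LT-HSC and 2758 for ST-HSC. Rfc2 had the smallest difference, with 1465 in granulocytes, against 2794 for HPC, 1984 for LT-HSC and 4558 for ST-HSC, and passed 2-fold only against ST-HSC. Of the 3 loader subunits above the controls in granulocytes, Rfc5 had a mean difference of -2.54, Rfc1 of -1.93 and Rfc2 of -1.0.

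The 3 subunits of the single strand binding protein RPA differed widely, with 2 of 3 past 2-fold and a median of -1.99. Rpa2 had a signal of 178 in granulocytes, against 5150 for HPC, 2453 for LT-HSC and 3635 for ST-HSC, 13.7-fold below the nearest array. A dimmer probe set, under the floor in granulocytes and LT-HSC, had a mean difference of -0.43 that is limited by the floor. Rpa1, the main DNA-binding subunit, had 3442 in granulocytes, against 16022 for HPC, 11846 for LT-HSC and 13559 for ST-HSC. Rpa3, the smallest subunit, had 286 in granulocytes, against 323 for HPC, 272 for LT-HSC and 539 for ST-HSC, and a mean difference of -0.34 within the spread between probe sets.

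Fen1 and Lig1, which finish the lagging strand, differed from each other. Lig1, the ligase, had a signal of 412 in granulocytes, against 2316 for HPC, 1616 for LT-HSC and 4311 for ST-HSC. Fen1, the flap nuclease, had 3099 in granulocytes, against 9810 for HPC, 3241 for LT-HSC and 6454 for ST-HSC, so granulocytes and LT-HSC were 1.05-fold apart. Its other probe set had 258 in granulocytes, against 1743 for HPC, 575 for LT-HSC and 1315 for ST-HSC, a mean difference of -2.09 in place of -0.93. The brighter probe set is of a type that may also bind related transcripts, as its name ends in _x_at. The size of the Fen1 difference thus depended on the probe set, and the direction did not.

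Ribonucleotide reductase was lower in granulocytes in both subunits. Rrm1, the large subunit, had a signal of 495 in granulocytes, against 2270 for HPC, 1953 for LT-HSC and 4067 for ST-HSC. Rrm2, the small subunit made in S phase, had 1054 in granulocytes, against 12720 for HPC, 6495 for LT-HSC and 3295 for ST-HSC. The order of the other 3 arrays differed between the subunits, with ST-HSC brightest for Rrm1 and dimmest of the 3 for Rrm2. All 3 Rrm2 probe sets had less signal in ST-HSC than in HPC and LT-HSC.

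Taken by probe set, 78 of the 84 member probe sets lay above the floor on at least 1 array, 49 of them on all 4, and 6 on none. Of the 78, 60 were 2-fold or more below the mean of the other arrays in granulocytes and 2 were 2-fold or more above it, both named above, of Prim2 and Cdc45. Granulocytes had the lowest of the 4 signals for 68 of the 78. The same shares over all probe sets were not computed. The shares of all genes given above use a different rule and cannot stand in for them. Among the 15 members with several probe sets above the floor on every array, the SD between probe sets of a gene was 0.51 log2 units.

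**Figure D3:**
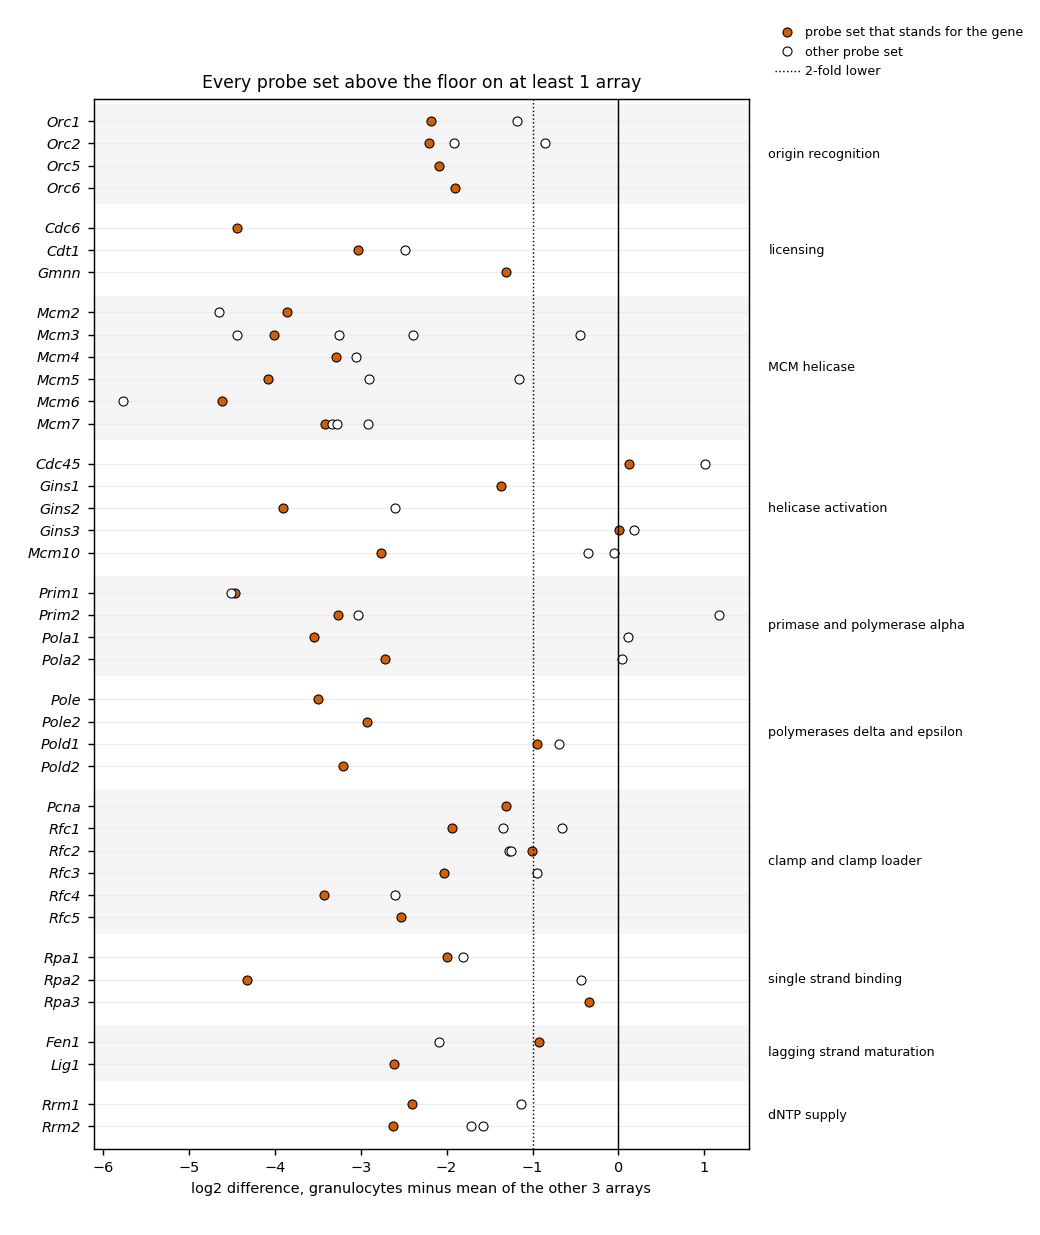
Log2 difference of granulocytes from the mean of the other 3 arrays for each of the 78 member probe sets above the floor on at least 1 array, with the probe set that stands for the gene filled. Most probe sets lie left of the 2-fold line, and 7 lie right of 0, from Cdc45, Gins3, Prim2, Pola1 and Pola2.

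Other genes of the pathway, from lists drawn up with earlier results of these data known, were set beside the members. Of 32 further replication proteins, 17 were 2-fold lower in granulocytes than on each other array and 2 higher, with a median of -1.53, where 12.6% of all genes were lower and 8.72% higher. Timeless, a fork protection factor, had a signal of 11.2 in granulocytes, against 4033 for HPC, 2335 for LT-HSC and 3539 for ST-HSC. Atad5, which unloads PCNA, had 86.2 in granulocytes, against 4344 for HPC, 1229 for LT-HSC and 4031 for ST-HSC. The 2 higher ones were Rnaseh2c, a subunit of the enzyme that removes ribonucleotides from DNA, at 10850 in granulocytes, against 4507 for HPC, 2055 for LT-HSC and 2481 for ST-HSC, and Top1, topoisomerase I, at 7555 in granulocytes, against 3378 for HPC, 2274 for LT-HSC and 3707 for ST-HSC. Neither reached 2-fold when arrays were scaled to the hybridization controls. Dna2 had one of the smallest differences (0.28). Chtf18 lay under the floor on 3 arrays and at 121.4 in ST-HSC, so its value of -0.01 is set by the floor.

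Of 18 measured genes of nucleotide supply, 10 were lower in granulocytes and 1 higher, with a median of -2.65, where 12.6% of all genes were lower and 8.72% higher. Dtymk, thymidylate kinase, had a signal of 65.6 in granulocytes, against 6401 for HPC, 6696 for LT-HSC and 8391 for ST-HSC, at least 53.3-fold lower. Dut, which removes dUTP, had 190 in granulocytes, against 6379 for HPC, 4116 for LT-HSC and 6199 for ST-HSC. The higher gene was Samhd1, which breaks down deoxynucleotides and thus acts against ribonucleotide reductase, at 29079 in granulocytes, against 1650 for HPC, 1366 for LT-HSC and 2311 for ST-HSC. Rrm1 and Rrm2 were thus lower and Samhd1 higher in granulocytes. The smallest differences were those of Tyms (-0.11), whose value is set by the floor near which it lay on every array, and Rrm2b (0.50), the form of the small subunit used outside S phase.

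Chromatin assembly genes were 2-fold lower in 6 of 10 and higher in none, with a median of -1.77. Of all genes, 12.6% were lower and 8.72% higher, or 25.2% and 14.8% with dim genes left out. The largest were the histone chaperone Asf1a (-3.75) and the maintenance methyltransferase Dnmt1 (-3.68), and the smallest Rbbp4 (-0.62) and Nasp (-0.82). Of 13 E2F and pocket protein genes, 4 (30.8%) were lower and none higher, with a median of -0.44. The share lower and the median were near those of all genes with dim ones left out (25.2% and -0.35). The E2F partner Tfdp2 (-4.69) and the repressor E2f6 (-3.76) differed most, while E2f5 (0.22) and Rb1 (0.31) hardly differed. Of 12 proliferation genes, 5 were lower and none higher, with a median of -1.01. Aurkb (-3.92) and Cdk1 (-3.82), kinases of mitosis, differed most, and Ccnb2 (-0.25) least, while the -0.34 of Ccne2 is limited by the floor, under which it lay in granulocytes and ST-HSC. The granulocyte signals of Tfdp2, E2f6, Aurkb and Cdk1 lay under the 138 of the controls, so their differences are bounds.

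The progenitors were set against LT-HSC and ST-HSC. Just 1 of the 39 members, Cdc45, was 2-fold higher in HPC than on each stem cell array, where 2.08% of all genes were, and none was lower, where 2.63% were. None reached 4-fold, where 0.275% of all genes were higher. Cdc45 in HPC was 1.52 log2 units above LT-HSC and 1.36 above ST-HSC. Its second probe set went the other way, 0.87 below their mean, so the direction depended on the probe set. Mcm10 was 1.24 above LT-HSC and 1.00 above ST-HSC, just short of 2-fold. Rrm2 was 0.97 above LT-HSC, also just short, and 1.95 above ST-HSC. The members' median was 0.40 log2 units above the mean of the stem cell arrays, against 0 for all genes. With dim genes left out, 3.18% of the remaining genes were higher in HPC and 4.97% lower, with a median of 0.07.

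The HPC signal was the highest of the 3 for 22 of the 39 members, against 27% of all genes, many of which were at the floor. With a common 75th percentile the 22 became 25 (32.8% of all genes), and with the hybridization controls 27 (34.6%). Against LT-HSC alone 10 members were 2-fold higher in HPC, where 5.27% of all genes were, and none lower, where 6.5% were. These were Cdt1, Mcm2, Cdc45, Gins2, Mcm10, Pola1, Pole, Rfc5, Rpa2 and Fen1, with log2 differences from 1.02 for Gins2 to 1.60 for Fen1. Against ST-HSC alone there were 2 higher, Cdc45 and Rrm2, where 6.41% of all genes were, and 2 lower, Pola1 (-1.64) and Rfc3 (-1.04), where 6.08% were. Of the 2 arrays behind the 10 differences, both held B-lineage markers (a sum of 5039 in HPC against 9508 in LT-HSC), and the granulocyte marker sum was 1458 in HPC against 18007 in LT-HSC.

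The long-term cells were set against the short-term cells. Of the 39 members, 9 had 2-fold less signal in LT-HSC, where 5.33% of all genes did, and none had 2-fold more, where 7.05% did. With dim genes left out, 9 of 38 members were lower, where 9.79% of the remaining genes were lower and 11.4% higher. The median was -0.43 for the members and 0 for all genes. Pola1, with 534 in LT-HSC against 4025 in ST-HSC, was 7.53-fold lower, the largest difference and the sole one past 4-fold, where 0.682% of all genes were. Rfc5 was 3.79-fold lower, Prim1 2.70-fold, Lig1 2.67-fold, Pole 2.57-fold, Rfc2 2.30-fold, Mcm2 2.22-fold, Rrm1 2.08-fold and Rfc3 2.04-fold. Of the primase and the polymerases alpha and epsilon 1 subunit each is among the 9. By their brightest probe sets, the partners Prim2 (1.48-fold), Pola2 (1.36-fold) and Pole2 (1.27-fold) did not pass 2-fold. The others among the 9 are 3 subunits of the clamp loader, the ligase, the large reductase subunit and 1 subunit of the helicase. Some calls depended on the probe set. Another Prim2 probe set had 743 in LT-HSC against 2234 in ST-HSC, a log2 difference of -1.59. Other probe sets of Gins2 (-1.45) and Fen1 (-1.19) also passed 2-fold where the brightest did not. Those of Orc2 (1.38, a bound) and Rfc1 (1.49) passed it in the other direction. Other probe sets of Rfc2 (-0.54 and -0.79), Rrm1 (-0.52) and Prim1 (-0.98) fell short of 2-fold, while those of Mcm2 (-1.63) and Rfc3 (-1.11) passed it. Rfc5, Lig1 and Pole have 1 probe set each, and the other Pola1 probe set lay under the floor on both arrays. Their differences thus have no check by a second probe set.

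By role, the median differences of LT-HSC from ST-HSC were -1.20 for lagging strand maturation, -1.0 for primase and polymerase alpha and -0.93 for the clamp and its loader. They were -0.68 for licensing, -0.57 for single strand binding, -0.21 for polymerases delta and epsilon, -0.20 for origin recognition, -0.17 for helicase activation, -0.16 for the MCM helicase and -0.04 for dNTP supply. The dNTP supply median is the midpoint of Rrm1 (-1.06) and Rrm2 (0.98), which differed in opposite directions. The role groups held 2 to 6 genes each. Scaled to the hybridization controls, the medians of the MCM helicase, helicase activation and dNTP supply turned to 0.04, 0.03 and 0.16. By their brightest probe sets, the MCM subunits other than Mcm2 differed by at most 0.27 log2 units between LT-HSC and ST-HSC. Mcm5, for example, had 4304 in LT-HSC and 4368 in ST-HSC. Other probe sets gave -1.07 for Mcm4, and -1.50 and -0.51 for Mcm5.

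The sign ran 1 way more often than the size passed 2-fold. LT-HSC lay below ST-HSC for 31 of 39 members (79.5%), where 33.9% of all genes did. Many of the other genes were at the floor on both arrays. By probe set, LT-HSC was lower for 56 of the 73 member probe sets above the floor on either array. The share over all probe sets was not computed. LT-HSC had the lowest of the 3 signals among HPC, LT-HSC and ST-HSC for 28 members, where 21.3% of all genes did. With arrays scaled to the hybridization controls the 31 became 26 (27.1% of all genes) and the 28 became 25 (18.6%), and with a common 75th percentile they became 34 (36.9%) and 33 (26.4%). The 8 members with more signal in LT-HSC were Rrm2 (0.98), Gins3 (0.76), Orc5 (0.63), Rfc4 (0.28), Gins1 (0.18), Pold1 (0.09), Mcm6 (0.08) and Orc2 (0.04), of which the last 3 turned to -0.03, -0.04 and -0.08 with a common 75th percentile. Among them Rrm2 had 6495 in LT-HSC and 3295 in ST-HSC, and its 2 other probe sets gave 1.53 and 1.09 in the same direction. For Orc2, Mcm3, Mcm6, Mcm7, Gins3, Rfc1 and Rpa1, probe sets of the gene disagreed on the sign.

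**Figure D4:**
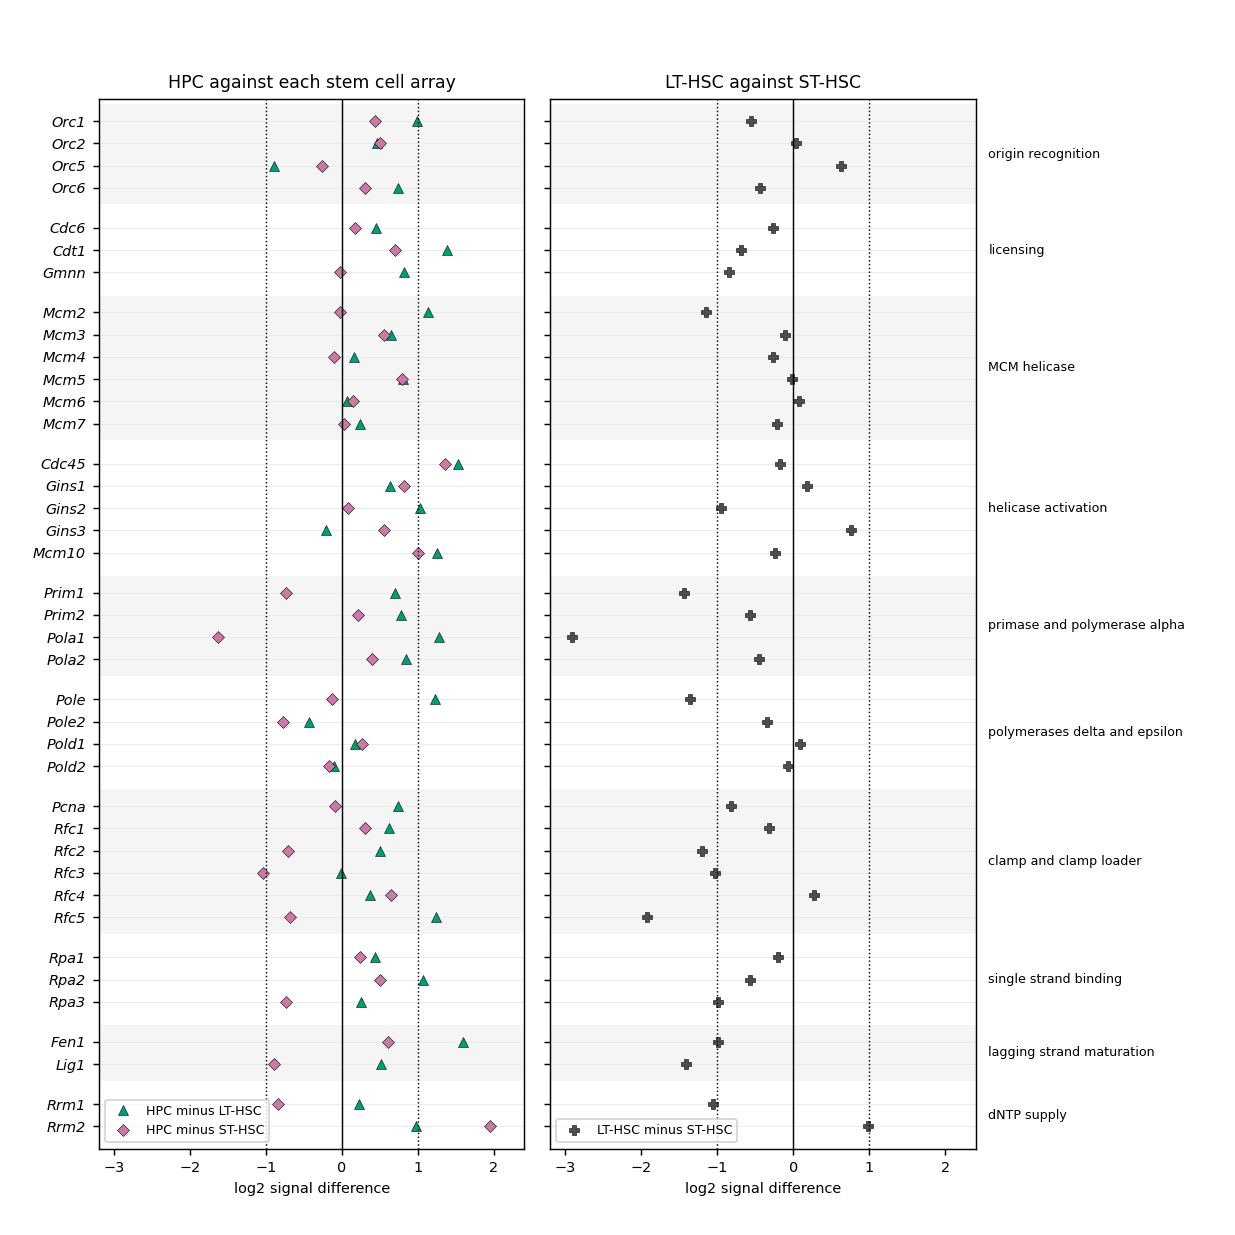
Left, log2 difference of HPC from LT-HSC and from ST-HSC for each of the 39 genes (rows, by role), and right, that of LT-HSC from ST-HSC, with dotted lines at 2-fold. On the right 31 of 39 points lie below 0 (26 when scaled to the hybridization controls), where 33.9% of all genes do (27.1%), and 9 beyond the lower line, where 5.33% do, with Pola1 farthest.

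The pathway lists were compared in the same way. Of 32 further replication proteins, 7 were 2-fold lower in LT-HSC and 1 higher, with a median of -0.55, where 5.33% of all genes were lower and 7.05% higher. The 7 were Cdc7, the kinase that fires origins, its activator Dbf4, Pole4, Dna2, Rnaseh2b, Tipin and Atad5, with Atad5 lowest at -1.71, and the higher one was Mcmbp (1.11). Nucleotide supply had 3 lower and 1 higher of 18, with a median of -0.61, and its share of higher genes (5.56%) is near that of all genes. All 10 chromatin assembly genes lay below 0, with a median of -0.54, although none passed 2-fold. Of the E2F and pocket protein genes, E2f1 (-1.31) and Rbl1 (-1.81) were lower in LT-HSC and E2f2 (2.21) was higher. Of 12 proliferation genes, Ccna2 (-2.01), Ccnb2 (-1.44) and Aurka (-1.32) were lower and Ccne1 (2.49) was higher.

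Markers of other cell types moved with this comparison. S100a8 had 6783 in LT-HSC against 144.5 in ST-HSC, and Vpreb1, a pre-B cell gene, had 4815 in LT-HSC against 15.0 in ST-HSC, and 2532 in HPC. Csf3r, another granulocyte marker, went the other way, with 551 in LT-HSC against 2404 in ST-HSC. Of the 6 progenitor markers, 4 were 2-fold lower in LT-HSC and none higher, where 5.33% of all genes were lower and 7.05% higher. Among them, Mpo had 1149 in LT-HSC against 18718 in ST-HSC. Cd34, which divides the gates, had 2384 in LT-HSC against 9778 in ST-HSC. Their part in the LT-HSC values was not tested.

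**Figure D5:**
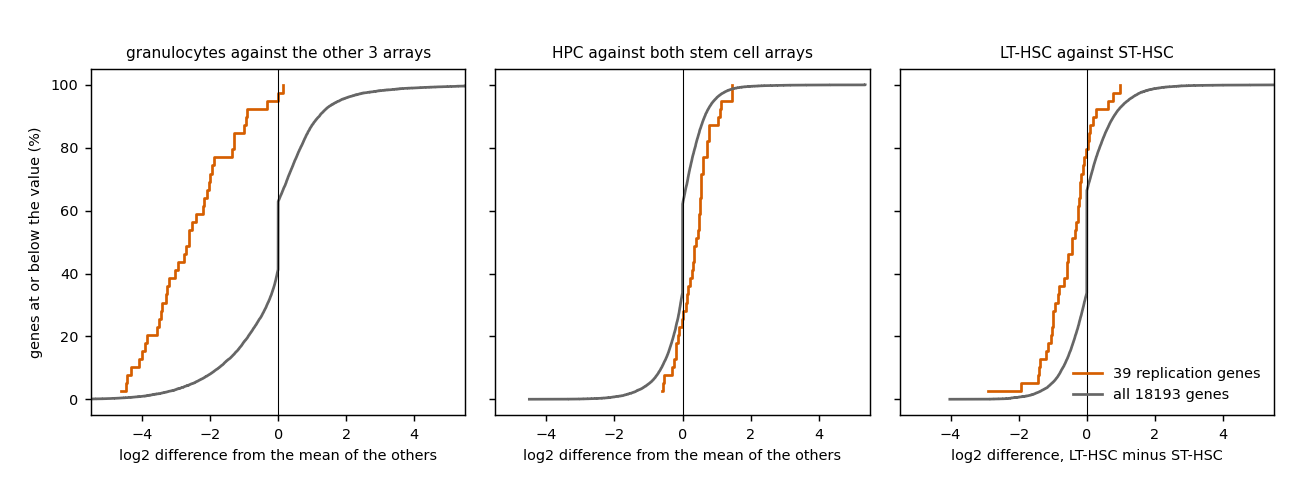
Share of genes at or below each log2 difference, for the 39 replication genes and for all 18193 genes, in the granulocyte comparison, the HPC comparison and that of LT-HSC with ST-HSC. The replication genes are shifted far to the left in granulocytes (median -2.62), slightly to the right in HPC (0.40) and slightly to the left in LT-HSC (-0.43), and the step at 0 in all genes comes from genes at the floor on every array compared.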

How the data were processed

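Signals come from 4 single-colour Affymetrix arrays, 1 for each population. Per the labels' protocols, groups of 50 or 100 cells were put into emptied egg coats, and RNA of 50 to 200 cells went through 2 rounds of linear amplification, which starts at the 3′ end of transcripts. The table the authors deposited holds 1 intensity per probe set and array, unlogged. The software that summarised the probes is not given in the sources used here, and no detection calls were used. The 2% trimmed mean of intensity was equal on all arrays in the deposited table, so the values were used without further scaling, and depth in the sense of reads does not apply.

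GEO's platform annotation gave 1 symbol for 34945 probe sets, several for 932 and none for 9160. All 84 member probe sets were found by Entrez number under the same symbol in the RefSeq annotation of GRCm38.p6, which was used only for names and promoter sequences. A gene stands by the probe set with the highest mean log2 signal. Values under the floor of 120.1 were set to it, and a fold with 1 side there is given as at least N-fold. Comparisons set granulocytes against all other arrays, HPC against LT-HSC and ST-HSC, and the stem cell arrays against each other, with 2-fold against every array as the threshold. Role and list medians use the difference from the mean log2 of the arrays compared with. No test, p-value or interval was computed, since the number of arrays limits precision.

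All 39 members were to be described, with signals on every array for those past 4-fold, with disagreeing probe sets or at the ends of their role group. Of the other pathway lists, the 2 largest and 2 smallest granulocyte differences are named, and genes past 2-fold in the other comparisons were named after their values were seen. The members and lists were chosen with earlier results of these data known. Alternatives covered the floor, scaling, choice of probe set, a filter on dim genes and the fold. The tools were numpy 2.4.6, pandas 2.3.3 and matplotlib 3.10.9 under Python 3.11.15. The procedure was run on simulated data with large changes planted in bright genes and noise below the SD between probe sets. That run does not check calls near 2-fold or near the floor.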

Additional observations from a re-analysis of the deposited data

How the results depend on the processing

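Counts and medians of the members were recomputed 84 times under other settings. Of these, 73 stayed within 1.5 times the count or, for medians, kept their sign within 1 SD between probe sets of a gene. That SD (0.57 for HPC, 0.64 for LT-HSC against ST-HSC) exceeds the medians there, so this asks little beyond the same sign. The HPC median ran from 0.18 to 0.55 and that of LT-HSC against ST-HSC from -0.55 to -0.24. Among the 11 that moved, a 4-fold threshold left 20 members lower in granulocytes, 1 lower in LT-HSC than in ST-HSC and 0 higher in HPC. Scaled to a common 75th percentile or to the hybridization controls, 3 members were higher in HPC in place of 1. Without the LT-HSC array, a setting chosen after seeing the data, HPC had 2 higher and 2 lower, each against ST-HSC alone, and the members lower in granulocytes came to 34. A count of 1 higher in LT-HSC, in place of 0, came from the hybridization control scaling, from the median over probe sets, from the first probe set by name and from plain _at probe sets. The count lower in granulocytes ran from 23 (floor at the 75th percentile) to 35, its median from -3.15 to -1.90, and the count lower in LT-HSC from 6 to 12. Over 356 values of single genes, 43 moved and 1 reversed: Pola2 in granulocytes, at a log2 difference of 0.041 with its first probe set by name, a dim one. Over all genes, the share lower against higher in granulocytes was 12.6% to 8.72% as deposited, 10.6% to 11.5% with the 75th percentile and 17.4% to 4.51% with the hybridization controls. That share for LT-HSC against ST-HSC was 5.33% to 7.05% as deposited and 3.77% to 9.84% with the hybridization controls. The cause of these shifts was not tested. Plain _at probe sets left 35 members. No paired analysis was possible because each population has 1 array. Signals near the floor limit the 8 members below it in granulocytes, and Cdc6 and Rfc4 just above it, to bounds.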
